A study of Mus musculus with 15 samples.

Results

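The clonotypes described here are the 50 largest of each CD8 library of non-obese diabetic (NOD) mice, 400 of the 53819 clonotypes in 8 such libraries and of the 59364 in all 15 libraries. A clonotype was 1 nucleotide sequence of the third complementarity-determining region (CDR3) of the T-cell receptor beta chain (TCRβ) with its V family. In each library the clonotypes were sorted by the deposited count, ties were ordered by nucleotide sequence, and the first 50 were taken. The members were thus chosen by their counts, and their counts and shares of counts are given as a description. The other 53419 CD8 clonotypes are called the rest.

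The study set Ifngr-1-mutant NOD mice, which carry a mutation of a chain of the interferon-γ receptor, beside wild type (WT) NOD mice, all at 125 days of age. The CD8 libraries came from the CD8+CD44+ T cells of pooled spleen and non-draining lymph nodes that an IGRP206–214 tetramer on H-2Kd left unbound. IGRP is a beta cell protein to which diabetogenic CD8 T cells of this strain respond. There were 4 libraries from mutant and 4 from WT mice, 1 a mouse. The TET libraries came from the cells that bound the tetramer, used at 8 nM (n = 4 mutant and 3 WT mice). The labels do not give the allele or the controls' litter, and a TET library of WT mouse 4 was not analysed here. TCRβ tables hold no CD8 or CD44 transcripts, so the sort could not be checked on markers.

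A TCRβ chain is made when a V, a D and a J segment are joined, with bases lost and added at the joints, and the CDR3 spans that junction. A T cell that divides passes its junction on, so daughter cells share 1 clonotype, and a junction needing few added bases can arise independently in many mice. CD44 is carried at high levels by T cells that have been activated. The mouse segments lie at the Trb locus on chromosome 6 in the RefSeq annotation (assembly GRCm38.p6).

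The CD8 libraries held 20909, 29411, 24700 and 32856 counts in mutant mice 1 to 4, and 17116, 27836, 25873 and 24258 in WT mice 1 to 4. They held 4502, 6804, 9743 and 9827 clonotypes in mutant mice, against 2040, 5316, 6991 and 8596 in WT mice. WT CD8 1 stood apart with the fewest clonotypes, so its 50 members were 2.45% of its clonotypes, against 0.509% to 1.11% in the other 7 libraries. The tables do not say whether a count is a read or a tagged molecule, intervals cover counting error only, and more cells of a clone and more RNA per cell cannot be told apart.

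The largest clonotype of each library is printed 5′ to 3′, as deposited, to show the junctions that the ranking brings to the top. Capitals mark the bases between the end of the V alignment and the start of the J alignment, where D bases and added bases lie.
mutant CD8 1, TRBV1: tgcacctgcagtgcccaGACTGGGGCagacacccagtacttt
mutant CD8 2, TRBV13: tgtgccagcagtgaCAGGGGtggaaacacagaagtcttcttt
mutant CD8 3, TRBV1: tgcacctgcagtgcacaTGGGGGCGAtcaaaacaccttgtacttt
mutant CD8 4, TRBV13: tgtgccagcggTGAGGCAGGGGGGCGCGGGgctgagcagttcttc
WT CD8 1, TRBV13: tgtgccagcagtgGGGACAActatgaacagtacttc
WT CD8 2, TRBV13: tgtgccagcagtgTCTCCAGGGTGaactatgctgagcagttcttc
WT CD8 3, TRBV13: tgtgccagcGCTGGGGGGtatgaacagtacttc
WT CD8 4, TRBV13: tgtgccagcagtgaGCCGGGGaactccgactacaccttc
These 8 clonotypes had 141, 122, 65 and 263 counts in mutant libraries 1 to 4 and 172, 124, 93 and 108 in WT libraries 1 to 4. All 8 had bases between V and J, from 6 in mutant CD8 2 to 19 in mutant CD8 4. As shares, the largest was 1.00% of the counts in WT CD8 1 (95% exact interval 0.861% to 1.17%) and the smallest 0.263% in mutant CD8 3 (0.203% to 0.335%). No clonotype was therefore a large part of any CD8 library.

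Together the 50 members took 6.27, 5.95, 4.43 and 8.18% of the counts in mutant libraries 1 to 4, against 13.4, 6.05, 5.55 and 3.70% in WT libraries 1 to 4. The 2 groups overlapped, and WT CD8 1, the library with the fewest clonotypes, was the highest. The mean was 6.21 ± 1.54% in mutant and 7.16 ± 4.25% in WT libraries (SD, n = 4 each), a difference of -0.96 percentage points (two-sided exact permutation p = 0.857, adjusted 0.898 over 22 exact tests). The difference was 1.11 without WT CD8 1, and 1.15 when the largest 1% of the clonotypes were taken in place of 50.

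**Figure D1:**
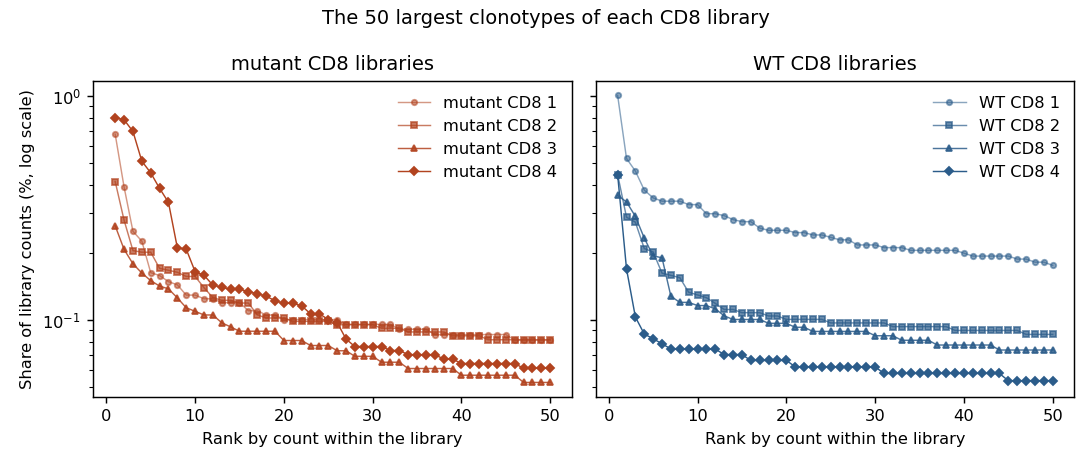
Share of library counts (%, log scale) of each of the 50 largest clonotypes against its rank, with 1 line for each of 4 mutant CD8 libraries on the left and 4 WT CD8 libraries on the right. WT CD8 1 lies above all other libraries at rank 1 and from rank 7 on, and WT CD8 4 falls most steeply after its largest clonotype, at 0.445%.

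The decline with rank differed among libraries. In mutant CD8 4 the largest clonotype had 13.2 times the count of the member at rank 50, against 5 to 8.29 times in the other mutant libraries and 4.89 to 8.31 times in WT libraries. The first 2 clonotypes of mutant CD8 4 had 263 and 257 counts. In WT CD8 4 they had 108 and 41 counts, so a single clonotype stood out.

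The border at rank 50 fell within a run of equal counts in every library. The clonotypes at ranks 50 and 51 both had 17, 24, 13 and 20 counts in mutant libraries 1 to 4, and 30, 24, 19 and 13 in WT libraries 1 to 4. Over the 8 libraries, 58 clonotypes outside the members had the count of the last member, from 1 in mutant CD8 4 to 18 in WT CD8 4. Which of these were members was set by the alphabetical order of their sequences. The TRBV1 members begin with tgcacc, so they come before tied sequences that begin with tgtg.

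TRBV13, the V family of the TRBV13-1, TRBV13-2 and TRBV13-3 segments, dominated the members. It gave 298 of 400 members, 35, 41, 26 and 33 of 50 in mutant libraries 1 to 4 and 43, 44, 36 and 40 of 50 in WT libraries 1 to 4. Every library had a larger TRBV13 share among its members than among its rest, where the share lay between 33.7% and 36.4%. The mean was 74.5 ± 12% of members against 34.8 ± 1.04% of the rest (SD, n = 8), a difference of 39.7 ± 11.3 points, higher in 8 of 8 libraries. The exact sign-flip p was 0.0078, the smallest that 8 libraries allow, and 0.0859 after adjustment over 22 exact tests.

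TRBV13 clonotypes also had larger counts throughout the libraries. The median count of a TRBV13 clonotype was 6, 5, 2 and 3 in mutant libraries 1 to 4, where that of all other families together was 3, 2, 2 and 2. In WT libraries 1 to 4 it was 10, 6, 4 and 3, and that of the other families 5, 3, 2 and 2. The TRBV13 median was thus higher in 7 of 8 libraries and equal in mutant CD8 3. The mean count was 1.49 to 2.0 times that of the other families, with a mean ratio of 1.78 ± 0.17 (SD, n = 8). Clonotypes were also ranked by count divided by the median count of their family, which removes differences between family medians by design. The TRBV13 share of the 50 largest then exceeded that of the rest by 2.87 points (exact p = 0.492). That ranking therefore cannot test why TRBV13 was in excess among the members. The cause of the higher TRBV13 counts was not tested.

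The TRBV13 share did not climb steadily to the top rank. It was 66.3 ± 22.0% at ranks 1 to 10, 76.6 ± 12% at 11 to 50, 81.3 ± 7.78% at 51 to 100, 70 ± 5.45% at 101 to 500 and 31.4 ± 1.64% from 501 on (SD, n = 8). The difference of the members from ranks 51 to 100 was -6.75 points (exact p = 0.0156, not adjusted). Ties at rank 50 were ordered by sequence, which put tied TRBV1 clonotypes ahead of tied TRBV13 clonotypes, and the effect of this on the difference was not tested. The difference was -26 points in mutant CD8 3 and between -8 and 0 points in the other 7 libraries, with a mean of -4.0 without mutant CD8 3 (exact p = 0.0313). On the numbers of clonotypes per family, edgeR called 0 of 14 families (0%) between the members and ranks 51 to 100, with 0 at an unadjusted p under 0.05 and a log2 fold change of -0.12 for TRBV13. At ranks 1 to 10 the share was lowest in mutant CD8 3, at 30%, and highest in mutant CD8 4 and WT CD8 2, at 90%.

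**Figure D2:**
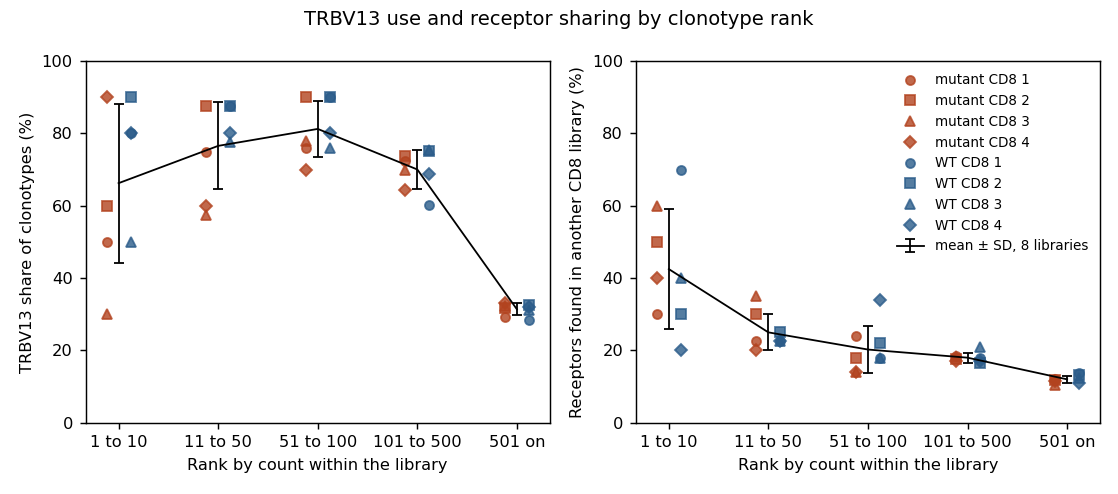
TRBV13 share of clonotypes (%, left) and share of receptors found in another CD8 library (%, right) in 5 windows of rank, with points for each mutant and WT CD8 library and the mean ± SD of 8 libraries in black. TRBV13 peaks at ranks 51 to 100 with a mean of 81.3%, while sharing is highest at ranks 1 to 10 with a mean of 42.5%.

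Per family, members were compared with the rest by edgeR's quasi-likelihood test on the number of clonotypes, with the library as a block, and 13 of 15 tested families were called at an adjusted p under 0.05. That is 86.7% of the families tested, 1 higher (6.67%) and 12 lower (80%). Because shares add to a fixed total, a larger TRBV13 share leaves less for every other family. TRBV13 was the family that rose, with a log2 fold change of 1.10 (SE 0.10, edgeR adjusted p = 1.01e-17).

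Among the 12 families that fell, TRBV4 had 1 member and 4.22% of the rest, a log2 fold change of -4.06 (SE 0.85). TRBV2 had 0 of 400 members, which allows a share of up to 0.75% (3 clonotypes over the 400). Its mean share of the rest was 1.299%, which is 1.73 times that limit. The limit pools the clonotypes of all 8 libraries and leaves out the spread between mice, so the ratio is not a sure minimum. With TRBV13 left out of the total, TRBV2 was not called (edgeR adjusted p = 0.16). TRBV19 and TRBV31 fell by 2.59 each on the log2 scale, with 4 members and 1 member, although that single TRBV31 clonotype was the second largest of WT CD8 1 with 90 counts. The other families that fell, TRBV3, TRBV5, TRBV12, TRBV14, TRBV16, TRBV17, TRBV20 and TRBV29, had log2 fold changes from -2.22 (TRBV3) to -0.87 (TRBV12). TRBV15 gave 8 members and did not pass (log2 fold change -0.81, edgeR adjusted p = 0.11). DESeq2 called 12 families, 11 of them lower, without TRBV20. When clonotypes of 1 count were left out of the rest, edgeR called 10, 9 of them lower, without TRBV12, TRBV20 and TRBV31. Leaving out 1 library at a time gave 9 to 13 called families, and the fewest, 9, came without mutant CD8 1, mutant CD8 2 or WT CD8 2, each time without TRBV12, TRBV17, TRBV20 and TRBV31.

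TRBV1 gave 28 members, the most after TRBV13, and did not fall. It had 7, 2, 5 and 4 of 50 members in mutant libraries 1 to 4, and 0, 3, 2 and 5 in WT libraries 1 to 4. Its share was 7 ± 4.41% of members against 6.12 ± 0.95% of the rest (SD, n = 8), a log2 fold change of 0.20 (edgeR adjusted p = 0.513), which was -0.048 with TMM factors. It also gave 7 of the 80 clonotypes at ranks 1 to 10 (8.75%), in 5 libraries, with the largest of mutant CD8 1 and of mutant CD8 3 among them. TRBV12 gave 5 of these 80 and TRBV15 gave 3, while TRBV13 gave 53. In mutant CD8 1 the TRBV1 members at ranks 46 to 49 had the tied count of 17, which 11 clonotypes outside the members also had. The alphabetical order favoured TRBV1 there. TRBV1 members also lay in the tied runs of mutant CD8 3, WT CD8 2 and WT CD8 4.

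Within the families other than TRBV13, taken as their own total, 2 of 14 were called (14.3%). TRBV1 rose by 1.57 on the log2 scale (SE 0.31, edgeR adjusted p = 3.8e-05), and TRBV4 fell by 2.72 (SE 0.97, adjusted p = 0.0438). Ranking by count over the family median, which evens out the family medians by design, left 0 of 15 families called by edgeR (0%). Of these, 1 had an unadjusted p under 0.05, and TRBV1 had a log2 fold change of 0.57 (edgeR unadjusted p = 0.0965).

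**Figure D3:**
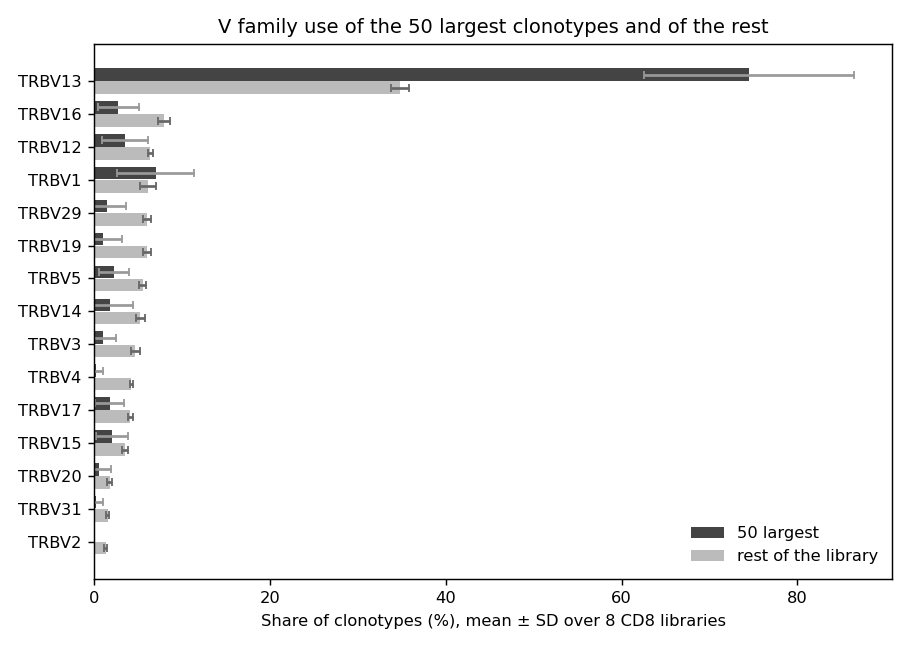
Share of clonotypes (%) of each of 15 V families among the 50 largest (dark bars) and in the rest (light bars), mean ± SD over 8 CD8 libraries, with error bars cut at 0. TRBV13 is at 74.5% among the 50 largest, TRBV1 at 7%, and each other family at 3.50% or less.

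Between strains, TRBV13 made up 70, 82, 52 and 66% of the members of mutant libraries 1 to 4, against 86, 88, 72 and 80% in WT libraries 1 to 4. The groups overlapped at mutant CD8 2, and mutant CD8 3 was the lowest. The mean was 67.5 ± 12.4% in mutant and 81.5 ± 7.19% in WT libraries (SD, n = 4 each), a difference of -14.0 points (exact permutation p = 0.114, adjusted 0.413), which fails the test. In the rest the shares were 34.3 ± 0.44% in mutant and 35.2 ± 1.31% in WT libraries. The excess of members over the rest was 33.2 ± 12.2 points in mutant and 46.3 ± 6.09 in WT libraries, and the difference of these, -13.0, did not pass either (exact p = 0.0857, adjusted 0.413). The strain difference was -8.83 points without mutant CD8 3.

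By family, edgeR called 0 of 14 (0%) between mutant and WT members, DESeq2 called 0, and 1 of 14 had an unadjusted edgeR p under 0.05 (7.14%). That family was TRBV14, with 0, 1, 3 and 3 members in mutant libraries 1 to 4 and 0 of 200 members in WT libraries. Its mean share in mutant libraries was 3.50 ± 3.00% (SD, n = 4), 2.33 times the 1.5% that 0 of 200 allows, with 3 clonotypes as the floor over the group. That floor pools the clonotypes of 4 mice and leaves out the spread between mice, so the ratio is not a sure minimum. The family was not called (n = 4 libraries each, edgeR quasi-likelihood p = 0.0068, adjusted 0.0952, not an exact test). Without mutant CD8 1 the adjusted p was 0.0399, so that 1 library decided the call. In the rest, TRBV14 was 5.21 ± 0.59% in mutant and 5.28 ± 0.48% in WT libraries. The largest TRBV14 member, the fourth of mutant CD8 4 with 168 counts, had the junction below.
mutant CD8 4, TRBV14: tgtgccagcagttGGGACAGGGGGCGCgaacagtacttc

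The J clusters, TRBJ1 and TRBJ2, each follow their own D segment at the locus. TRBJ1 took 18, 46, 22 and 28% of the members of mutant libraries 1 to 4, against 24, 28, 26 and 26% in WT libraries 1 to 4. The WT libraries lay close together, and mutant CD8 2 was the highest and mutant CD8 1 the lowest of all. The mean was 27.3 ± 8.28% of members against 28.2 ± 1.72% of the rest (SD, n = 8), a difference of -0.99 points (exact p = 0.797). Without mutant CD8 2 it was -3.86 points, with an exact p of 0.0313 that was not adjusted. The strain difference was 2.50 points (28.5 ± 12.4% in mutant, 26.0 ± 1.63% in WT, exact p = 0.914) and -3.33 without mutant CD8 2.

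J segments could be told apart only where their RefSeq lengths differ. TRBJ2-3, TRBJ2-4 and TRBJ2-5 together took 29.8 ± 5.99% of members against 29.1 ± 1.26% of the rest, and TRBJ2-7 took 20.3 ± 5.50% against 22.1 ± 1.25% (SD, n = 8). TRBJ1-4 took 3.00 ± 3.21% of members and 5.95 ± 0.53% of the rest, and was higher among members in 1 of 8 libraries. No D segment was named for 26.8 ± 6.32% of members and 25.4 ± 0.66% of the rest. These shares were described without a test.

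Members had slightly shorter CDR3s. Their mean length was 13.98, 13.60, 13.56 and 13.84 amino acids in mutant libraries 1 to 4, against 13.36, 13.70, 13.54 and 13.56 in WT libraries 1 to 4. The mean was 13.64 ± 0.19 amino acids among members and 13.90 ± 0.02 in the rest (SD, n = 8), lower in 7 of 8 libraries and higher in mutant CD8 1. The difference was -0.25 ± 0.19 amino acids (exact sign-flip p = 0.0234, adjusted 0.172), so it did not hold after adjustment. Neither did the TRBV13 share, which had the smallest exact p that 8 libraries allow (adjusted 0.0859).

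The V family moved with the length. Among TRBV13 clonotypes alone, members were shorter by a mean of -0.17 amino acids (exact p = 0.0781), and among all other families by -0.02 (exact p = 0.82), neither adjusted. CDR3s of at most 12 amino acids made up 20.8 ± 6.58% of members and 16.7 ± 0.51% of the rest, and those of at least 16 made up 8.75 ± 4.27% and 11.6 ± 0.22%. The bases between V and J numbered 9.07 ± 0.98 among members and 9.60 ± 0.09 in the rest (exact p = 0.164, adjusted 0.413). Mutant members were 0.21 amino acids longer than WT members (13.75 ± 0.20 against 13.54 ± 0.14, SD, n = 4 each, exact permutation p = 0.171, adjusted 0.413), a difference of 0.13 without mutant CD8 1, and no difference was shown.

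**Figure D4:**
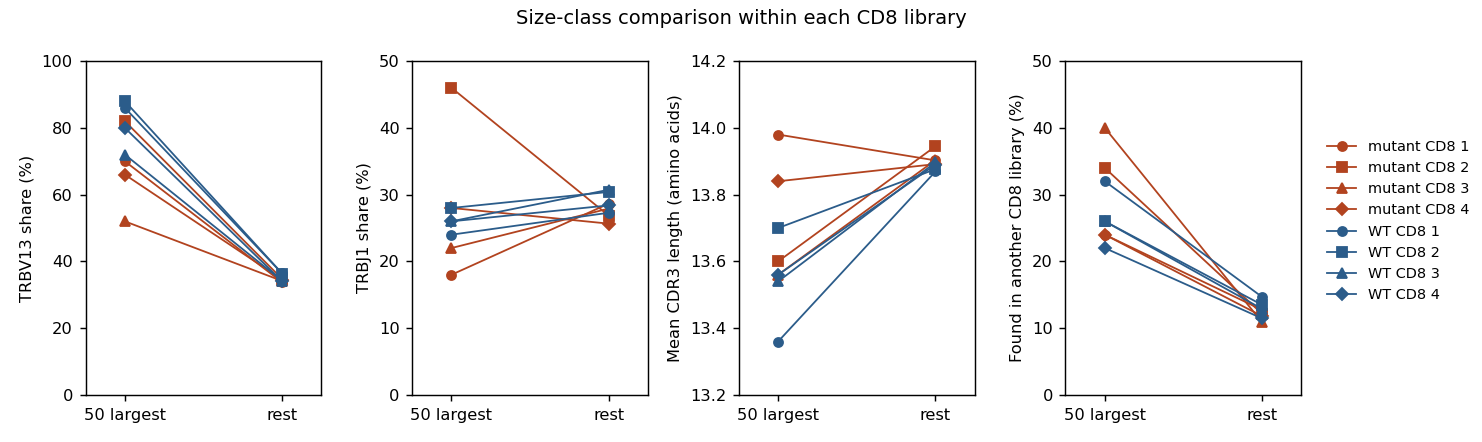
TRBV13 share (%), TRBJ1 share (%), mean CDR3 length (amino acids, axis not from 0) and share of receptors found in another CD8 library (%), for the 50 largest clonotypes and the rest, with 1 line for each CD8 library. TRBV13 and sharing are higher among the 50 largest in 8 of 8 libraries, and length is lower in 7 of 8.

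To see how often members recurred between mice, a receptor was defined as a V family with an amino acid CDR3. Of the members of mutant libraries 1 to 4, 24, 34, 40 and 24% had a receptor that was also found in another CD8 library, against 32, 26, 26 and 22% in WT libraries 1 to 4. In the rest the share lay between 10.9% and 14.7%, below that of the members in every library. The mean was 28.5 ± 6.21% of members against 12.5 ± 1.21% of the rest, a difference of 16 ± 6.50 points (SD, n = 8), higher in 8 of 8 libraries (exact sign-flip p = 0.0078, the smallest that 8 libraries allow, adjusted 0.0859). In all, 114 of the 400 members were found this way, 88 of them TRBV13, the family that gave 298 of all 400 members.

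Sharing declined with rank, at 42.5 ± 16.7% for ranks 1 to 10, 25 ± 5% for 11 to 50, 20.3 ± 6.54% for 51 to 100 and 12 ± 1.05% from 501 on. It exceeded the rest within TRBV13, by 10.5 points in 8 of 8 libraries (exact p = 0.0078), and within the other families, by 17.2 points in 7 of 8 (exact p = 0.0234), neither adjusted. When a clonotype was left out of a library wherever another library held its sequence at 10 or more times the count, the excess was 9.20 points (exact p = 0.0156). Only shared sequences can be left out in this way, so the filter acts on sharing by design. Against ranks 51 to 100 the excess was 8.25 points (exact p = 0.0938). The strain difference was 4.00 points (30.5 ± 7.90% in mutant, 26.5 ± 4.12% in WT, SD, n = 4 each, exact p = 0.514) and -0.50 under that same filter.

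By nucleotide sequence, members were found in many pairs of CD8 libraries, mostly in small numbers. Of the 50 members of mutant CD8 3, 11 were found in mutant CD8 4, and 10 of these had fewer counts there than in mutant CD8 3, with a median of 3. Of those 11, 8 were of families other than TRBV13. Of the members of mutant CD8 2, 8 were found in mutant CD8 3, all 8 with fewer counts there and with a median of 4. Each other pair of CD8 libraries shared 0 to 5 members. Passage of sequences between libraries during preparation or sequencing was not tested, since the filter above takes out matches of any origin.

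**Figure D5:**
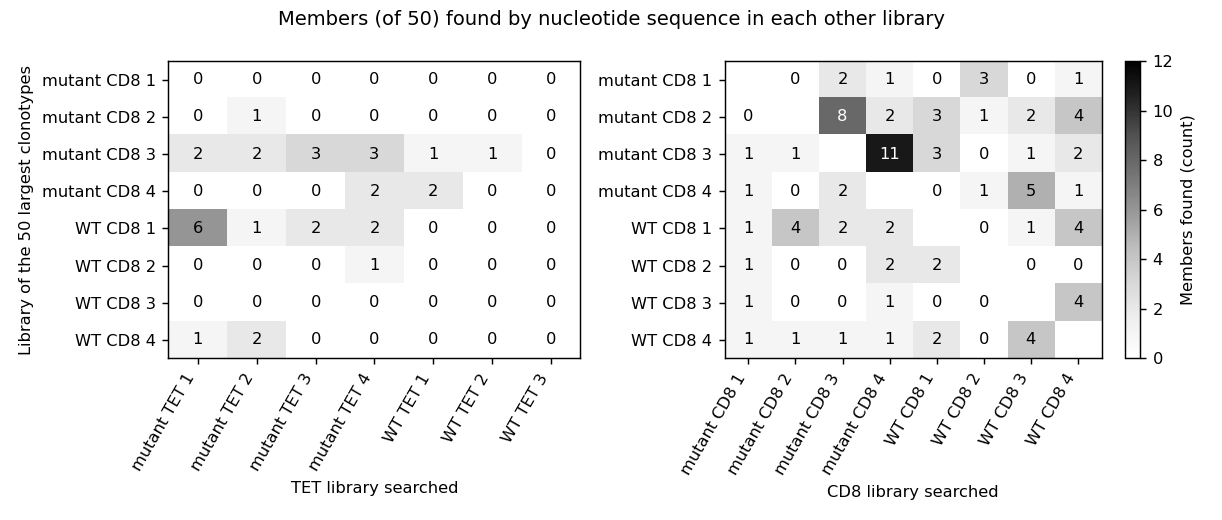
Number of the 50 members of each CD8 library (rows, mutant above WT) found by nucleotide sequence in each TET library (left) and each other CD8 library (right), with darker cells for higher numbers and the library itself left blank. The highest numbers are 11 members of mutant CD8 3 in mutant CD8 4 and 8 of mutant CD8 2 in mutant CD8 3, and WT CD8 1 has 6 members in mutant TET 1.

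Few receptors were members in several libraries. The 400 members were 398 distinct nucleotide sequences and 392 receptors, of which 389 were members in 1 library, 2 in 2 libraries and 1 in 3. The sequences of these 3 receptors are printed to show which mice used the same junction and which reached the same amino acids by another.
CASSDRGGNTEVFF, mutant CD8 2: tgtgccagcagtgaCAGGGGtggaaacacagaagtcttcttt
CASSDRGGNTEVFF, mutant CD8 3 and mutant CD8 4: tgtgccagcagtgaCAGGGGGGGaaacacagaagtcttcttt
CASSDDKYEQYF, mutant CD8 3 and WT CD8 1: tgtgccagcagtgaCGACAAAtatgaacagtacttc
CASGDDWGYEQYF, WT CD8 1: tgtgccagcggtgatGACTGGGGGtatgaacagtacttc
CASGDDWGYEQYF, WT CD8 4: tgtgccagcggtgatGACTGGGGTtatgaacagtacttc
All 3 used TRBV13. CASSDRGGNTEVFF had 122 counts in mutant CD8 2, 18 in mutant CD8 3 and 46 in mutant CD8 4, with a different junction in the first of these mice. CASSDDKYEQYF had 16 counts in mutant CD8 3 and 33 in WT CD8 1, with 1 and the same junction. That sequence also had 9 counts in WT CD8 4, 2005 in mutant TET 3 and 134 in mutant TET 4. Whether it passed between libraries was not tested. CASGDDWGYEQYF had 51 counts in WT CD8 1 and 18 in WT CD8 4, with junctions that differed in their capitals.

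Within a mouse, 3 receptors were each represented by several members. The TRBV13 receptor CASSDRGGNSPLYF, which uses TRBJ1-6 by its J length, had 3 members in mutant CD8 4 with 257, 127 and 25 counts, and their junctions differed.
second largest: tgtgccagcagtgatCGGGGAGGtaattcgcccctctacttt
sixth largest: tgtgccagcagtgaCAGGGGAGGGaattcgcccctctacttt
rank 28: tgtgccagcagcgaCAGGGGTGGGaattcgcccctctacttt
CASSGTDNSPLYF, again TRBV13 with TRBJ1-6, had 2 members in mutant CD8 2, with 59 and 25 counts. A TRBV1 receptor had 2 members in mutant CD8 3, with 35 and 14 counts. A second nucleotide sequence for the receptor in the same library, of any count, was held by 5.50 ± 3.34% of members and 6.37 ± 2.35% of the rest (SD, n = 8), means that differed by less than either SD.

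Whether large clonotypes of the cells sorted as non-binding also occurred among cells sorted as binding the tetramer was asked by matching nucleotide sequences. In the mouse's own TET library 0, 1, 3 and 2 of 50 members were found in mutant mice 1 to 4, and 0, 0 and 0 in WT mice 1 to 3, with same-numbered libraries of a strain taken as 1 mouse. These 6 of 350 members gave a mean of 1.71 ± 2.43% against 0.273 ± 0.25% of the rest (SD, n = 7 mice, exact sign-flip p = 0.25, adjusted 0.435), and the difference of 1.44 points was 0.715 without mutant CD8 3. The strain difference was 3.00 points (3.00 ± 2.58% in mutant, n = 4, and 0% in WT, n = 3, exact permutation p = 0.143, adjusted 0.413). Mutant TET libraries held 17294 to 60164 counts and WT TET libraries 2536 to 14958, so a clonotype not seen could be up to 0.118% of the shallowest, WT TET 3, and 0.00499% of the deepest, mutant TET 4.

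In any TET library, of whichever mouse, 18 of 400 members were found. They numbered 0, 1, 3 and 3 in mutant CD8 libraries 1 to 4, and 7, 1, 0 and 3 in WT CD8 libraries 1 to 4. The mean was 4.50 ± 4.63% of members against 1.68 ± 0.85% of the rest (SD, n = 8, exact p = 0.125, adjusted 0.413), and 0.04 points of difference remained when sequences held at 10 or more times the count elsewhere were left out. That filter takes out only sequences with a match, of whatever origin, so it does not test passage between libraries. Of the 18, 7 had a larger share in a TET library than in their CD8 library, and 8 had 1 count in every TET library that held them. All 18 used TRBV13, and 0 of the 102 members of other families were found, against a mean of 1.03% of the rest of those families. For 102 members, a share of 1.03% is about 1 clonotype, so the 0 does not show a difference.

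The matches that were large in TET libraries are printed because they were at the same time members in CD8 libraries. Those libraries came from cells sorted as not bound by the tetramer. Whether these sequences came from such cells, or from binding cells by the sort or by passage between libraries, was not tested. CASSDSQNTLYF has no capitals, since its V and J alignments overlap.
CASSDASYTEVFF: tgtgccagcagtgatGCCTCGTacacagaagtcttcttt
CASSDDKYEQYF: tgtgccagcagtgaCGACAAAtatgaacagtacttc
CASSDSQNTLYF: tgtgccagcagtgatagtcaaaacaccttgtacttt
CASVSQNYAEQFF: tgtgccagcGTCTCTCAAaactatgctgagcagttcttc
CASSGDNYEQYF: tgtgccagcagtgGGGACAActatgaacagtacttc
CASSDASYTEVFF had 18 counts in mutant CD8 3 and 2376 in mutant TET 3, where it was the largest clonotype at 10.8% of the counts. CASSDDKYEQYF had 16 counts in mutant CD8 3 and 2005 in mutant TET 3, the second largest there. Both were thus members in the CD8 library of the mouse whose TET library they led.

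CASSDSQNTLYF was the most widespread. It had 14 counts in mutant CD8 3, and 552, 7, 7 and 1764 counts in mutant TET libraries 1 to 4. Outside the members it had 23 counts in WT CD8 1 (0.134%, rank 101), 10 in mutant CD8 1 and 8 in mutant CD8 2. In WT TET 1 it had 1094 counts and was the largest clonotype at 22.0%, and in WT TET 2 it had 804. In mutant mouse 3, by contrast, it was a larger part of the CD8 library, at 0.0567% of the counts, than of the TET library, at 0.0319%.

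In mutant CD8 4, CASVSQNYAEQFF was the fifth largest with 149 counts (0.453%), against 1121 counts (1.86%) in mutant TET 4. The member at rank 49 had 20 counts there and 12 in mutant TET 4. The member at rank 18 had 42 counts in mutant CD8 4, 0 in mutant TET 4 and 71 in WT TET 1. The matches of this mouse were therefore of each kind, larger in TET, smaller in TET and absent from its own TET library.

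The matches of WT CD8 libraries lay in TET libraries of mutant mice, and most were from WT CD8 1. Mutant TET libraries held 393 to 2199 clonotypes and WT TET libraries 97 to 126. The rest of WT CD8 1 likewise had 28, 17, 10 and 7 matches in mutant TET libraries 1 to 4, against 3, 4 and 2 in WT TET libraries 1 to 3. The largest clonotype of WT CD8 1, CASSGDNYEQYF, had 172 counts, against 1381 counts in mutant TET 1, where it was the largest at 7.99%, and 115 in mutant TET 2. It had 0 counts in WT TET 1, which allows a share of up to 0.0604% there. In all, 7 members of WT CD8 1 were found in mutant TET libraries, 6 of them in mutant TET 1, and 4 of those 6 had 3 or fewer counts there. Without WT CD8 1, the excess of members found in any TET library was 1.55 points, against 2.82 with it, and the strain difference was 0.83 points, against -2 with it.

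Among TRBV13 members, the fourth CDR3 residue was serine in 57.5 ± 6.85% and glycine in 30.4 ± 8.49% (SD, n = 8). In the rest of the TRBV13 clonotypes these shares were 52.2 ± 1.06% and 37.2 ± 0.86%. The residue comes mainly from the end of the V segment, but the tables name only the family, so the segments were not separated. TRBV19, which with TRBV13 is known from mucosal-associated invariant T cells, gave 4 members. TRBV1 and TRBV29, which with TRBV13 are known from invariant natural killer T cells, gave 28 and 6. TRBV26 gave 0 of 400 members and 211 of the rest.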

How the data were processed

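For each library the authors deposited a table that lists every nucleotide CDR3 with a count, a fraction, its V family, D segment and J cluster, its length in amino acids and the positions of the V and J alignments. Per the labels' protocols, RNA was copied with a TCRβ constant region primer, 9-nt molecular identifiers were added, and nested PCR products were sequenced. The deposited fraction is relative to a larger total (94.2% to 99.2% is in the tables), so shares were recomputed from the counts. Neither the aligner nor the caller nor the build is named in the sources used here. Left out were 4 alpha chain entries with 6 counts.

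The members and the lists were chosen with earlier results of these data known. The V families described are all those with at least 1% of CD8 clonotypes (15 of 23), and the clonotypes named are the largest 2 of each library, those in several libraries and those in TET libraries, with a few chosen after their values were seen. J segments were told apart by their RefSeq lengths (GRCm38.p6), 19 nucleotides below the deposited J length.

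Numbers of clonotypes per V family were tested with edgeR 4.0.16 in R 4.3.3 (quasi-likelihood, no trend of the dispersion, all clonotypes as library size, 15 families between size classes and 14 between strains), with DESeq2 1.42.0 as an alternative. On simulated data with 15 families, members against rest, a 2-fold change of TRBV13 was called in 100% of 50 runs, 0.25-fold changes of TRBV5 and TRBV3 in 94% and 90%, and unchanged families in 0.667%. Each family was simulated without a fixed total, so the TRBV13 rise took no share from the others. These runs therefore do not show how often a TRBV13 rise alone has other families called lower. Single values were compared by two-sided exact tests (scipy 1.17.1): sign flips over 8 libraries (256 assignments) or 7 mice (128), and permutations of 4 against 4 libraries (70 splits, smallest p 0.0286) or 4 against 3 (35). Benjamini-Hochberg adjusted values cover 22 exact tests. Per the series' design text each library is a different mouse of its fraction. The alternatives were the 100 largest, the largest 1%, ranks 51 to 100 as the comparison, no single-count clonotypes, counts summed per receptor, the filter at 10 times the count, each library left out, and other fits.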

Additional observations from a re-analysis of the deposited data

How the results depend on the processing

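Ranks near 50 rest on 13 to 30 counts, so counting error limits which clonotypes are members, and TET libraries of few counts limit which members can be found there. Of 300 recalculations of a whole comparison, 267 were graded as the same. For single values this means the same direction and side of the threshold. For V family comparisons it means a similar number of called families, so single families could still change side. The cause of each change below was not tested. With the 100 largest, TRBJ1 differed from the rest by 1.57 points and between strains by -3.0, and sharing between CD8 libraries differed between strains by -0.75. With the largest 1%, these were 0.957, -1.97 and -3.40, the share of counts differed between strains by 1.15, and TRBV1 had a log2 fold change of -0.0074. Against ranks 51 to 100, TRBV13 differed by -6.75 points, length by 0.045 amino acids, bases between V and J by 0.13 and sharing by 8.25 points. The exact p of sharing, not adjusted, was then 0.0938 and no longer under 0.05. No family was called there (0), with log2 fold changes of -0.12 for TRBV13, 1.32 for TRBV3, 1.0 for TRBV5, 0.45 for TRBV12, 1.42 for TRBV14, 1.17 for TRBV15, 1.0 for TRBV17, 1.32 for TRBV19 and 0.58 for TRBV20. Without sequences that another library held at 10 times their count, the share found in TET libraries of other mice differed by -0.331 points, and the strain differences were 0.5 for any TET library and -0.5 for sharing. Among TRBV13 alone the length differed by -0.17 amino acids. Among the other families it differed by -0.0178, and the shares found in the own, any and other mice's TET libraries by -0.162, -1.03 and -0.93 points. Ranked by count over the family median (chosen after seeing the data), TRBV13 differed by 2.87 points, length by -0.13 and bases between V and J by 0.17. Under that ranking 0 families were called, with log2 fold changes of 0.38 for TRBV2, 0.25 for TRBV12, 0.0058 for TRBV14, 0.73 for TRBV15 and 0.67 for TRBV20. Within the families other than TRBV13, also added later, 2 were called, and log2 fold changes were 0.069 for TRBV5, 0.49 for TRBV12, 0.52 for TRBV15 and 0.13 for TRBV17, and between strains -0.37 for TRBV12 and -0.0052 for TRBV16. TRBV1 had -0.048 with TMM factors and -0.087 with counts summed per receptor. Leaving out each library in turn gave 9 to 13 called families between members and rest, and 0 to 1 between strains (TRBV14, without mutant CD8 1). It gave -3.86 to 0.397 points for TRBJ1, the first of these without mutant CD8 2. Between strains it gave -3.33 to 6.0 points for TRBJ1, -2.12 to 1.11 for the share of counts and -3.83 to 0.833 for members found in any TET library. The difference of the strains' excesses was -1.54 to 8.4 for TRBJ1, -3.06 to 1.39 for any TET library and -3.83 to 0.622 for other mice's TET libraries. TRBV1 between size classes had -0.0025 to 0.33, and between strains TRBV12 had -0.16 to 0.92 and TRBV16 0 to 1.13. Same-numbered mutant and WT libraries shared only a number: deviations in V family use of the members correlated by -0.37, 0.745, 0.866 and 0.18. With the number as a replicate block the strain fit called 0 families, the difference in TRBV13 share was -14.0 points and in members found in the own TET library 2.67 points, and no call changed.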
